A study of Mus musculus with 384 samples.

Results

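The genes described are 40 genes of the G1/S transition and of DNA replication, taken by name from the 31617 genes of a raw count table of single-cell RNA sequencing of mouse pluripotent stem cells. All 40 were found in that table. They comprise the MCM helicase (6 genes), origin licensing and firing (5), the G1/S cyclins and an E2F factor (3), the replication fork (10), nucleotide supply (3), histone supply and chromatin (9) and DNA repair (4). The study compared formative stem (FS) cells, propagated from epiblast before gastrulation, with epiblast stem cells (EpiSCs), which represent a later, primed stage. FS lines 5ar1 and 5ar2 were cultured in AloXR (A3XR in the labels), which holds 3 ng/ml activin A, the tankyrase inhibitor XAV939 and the retinoic acid receptor inverse agonist BMS493, with no added Fgf2. EpiSC line AFX6 was cultured in AFX (20 ng/ml activin A, Fgf2 and XAV939) and EpiSC line AF32 in AF, which lacks XAV939. All lines grew on fibronectin in N2B27 medium under low oxygen, carry no stated genetic alteration and were passaged as clumps. The labels do not give the mouse strain of each line. Each EpiSC medium is represented by 1 line, so line and medium cannot be told apart among EpiSCs.

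From each line 96 cells were sorted and sequenced with Smart-seq2, a full-length method with no molecular identifiers, and 326 of 384 cells had at least 3000000 counts and were kept (90 of 5ar1, 90 of 5ar2, 66 of AFX6 and 80 of AF32). Median depth lay between 4401633 and 5069883 counts per cell. The median cell had 11371 and 11567.5 detected genes in the FS lines, and 10328 and 10330.5 in the EpiSC lines. Pou5f1, which marks pluripotent cells, was at 643.6, 489.7, 528.7 and 533.0 counts per 1000000 counts (CPM) in the summed cells of 5ar1, 5ar2, AFX6 and AF32, the order used below wherever a gene has 4 values. Of other cell types, 3 extraembryonic markers summed to at most 0.849 CPM in any line. The 4 fibroblast markers summed to between 1.178 and 30.5 CPM, and the 5 primitive streak and endoderm markers to at most 4.25 CPM except in AF32, at 48.8. The 3 neural markers, mostly Tubb3, a neuronal tubulin, summed to 337.4, 134.3, 16.6 and 77.5 CPM.

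In the cell cycle, origins of replication are licensed in G1 when Cdc6 and partner proteins load the MCM helicase, the ring that later unwinds DNA. Cyclin E with its kinase and the release of E2F transcription factors from the retinoblastoma proteins then start S phase, in which polymerases copy DNA behind the helicase while deoxynucleotides and histones are supplied. Many genes of this set are E2F targets whose transcripts are high around the G1/S boundary, and pluripotent stem cells are known for a short G1 phase.

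Because many of these genes are known E2F targets, the windows around their start sites (250 bases before to 50 after, RefSeq annotation of GRCm38.p6) were searched for words of the E2F consensus. Windows were found for 30 of the 40 genes. The words TTTGGCGC, TTTCCCGC, TTTGCCGC and TTTCGCGC were sought on both strands, and matches may overlap. At least 1 match was present for 13 of the 30 genes (43.3%). Of all 27025 genes with a window 704 had one (2.6%), and of 38 genes of G2 and mitosis 1 had one (2.632%). The pentamer CCAAT was present for 20 of the 30 genes (66.7%), for 41.1% of all genes and for 76.3% of the G2 and mitosis genes. A match describes the letters and is not a measured binding site.

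The 180 bases before the start site are printed 5′ to 3′ for 6 genes, with E2F words in capitals. Mcm6 (chr1:128359706-128359885, minus strand) is shown as the gene with the most matches, and Mcm5 (chr8:75109329-75109508, plus strand) for its overlapping pair. Cdc6 (chr11:98907971-98908150, plus strand) and Cdca7 (chr2:72476039-72476218, plus strand) have 1 match each. Ccne1 (chr7:38107491-38107670, minus strand), which had the lowest p among the 40 genes, and Ubr7 (chr12:102757795-102757974, plus strand), which differed in the opposite direction, have none in these bases.
Mcm6: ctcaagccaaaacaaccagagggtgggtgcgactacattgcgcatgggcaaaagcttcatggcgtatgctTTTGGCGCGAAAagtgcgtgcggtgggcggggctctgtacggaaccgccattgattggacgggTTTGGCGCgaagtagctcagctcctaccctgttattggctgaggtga
Mcm5: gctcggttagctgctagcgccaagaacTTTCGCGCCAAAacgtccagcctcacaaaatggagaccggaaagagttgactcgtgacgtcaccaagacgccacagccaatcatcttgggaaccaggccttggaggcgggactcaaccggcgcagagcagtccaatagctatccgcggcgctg
Cdc6: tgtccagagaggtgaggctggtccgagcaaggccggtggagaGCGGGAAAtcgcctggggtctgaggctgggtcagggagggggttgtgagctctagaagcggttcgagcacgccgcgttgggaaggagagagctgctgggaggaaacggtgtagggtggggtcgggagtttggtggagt
Cdca7: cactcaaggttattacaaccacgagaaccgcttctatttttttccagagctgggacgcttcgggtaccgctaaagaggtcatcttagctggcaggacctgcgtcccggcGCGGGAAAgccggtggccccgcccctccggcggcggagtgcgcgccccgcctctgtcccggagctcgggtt
Ccne1: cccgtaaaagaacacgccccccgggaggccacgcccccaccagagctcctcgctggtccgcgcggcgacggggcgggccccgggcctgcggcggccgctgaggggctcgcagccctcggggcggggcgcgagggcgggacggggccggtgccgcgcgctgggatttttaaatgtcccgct
Ubr7: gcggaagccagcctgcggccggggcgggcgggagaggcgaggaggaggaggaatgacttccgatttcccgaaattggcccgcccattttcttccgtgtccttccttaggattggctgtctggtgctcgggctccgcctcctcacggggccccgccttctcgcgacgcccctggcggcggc
Counted from the start site to the first base of the word, Mcm6 had TTTGGCGC at position -110, GCGCGAAA at -106 and TTTGGCGC again at -47. Mcm5 had TTTCGCGC at -153 and GCGCCAAA at -149. Cdc6 had GCGGGAAA at -138, and Cdca7 the same word at -71. The match of Ubr7, TTTCCCGC, lay after the start site, at position 5. Pcna, Rrm2 and Rpa2, which follow the set closely across cells, had no match in their windows.

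Most of these genes were higher in FS cells than in EpiSCs. Counts of the kept cells were summed per line, and the 2 FS lines were compared with the 2 EpiSC lines. In such sums, fewer cells with a transcript and less of it per cell cannot be told apart. In 24 of the 40 genes both FS lines lay above both EpiSC lines, against 26.8% of all 22606 genes tested. In 3 genes (Cdc45, Ubr7 and Wdr76) both FS lines lay below both EpiSC lines, against 21.5% of all genes. In the other 13 the lines overlapped. Among 5742 genes with at least 20 CPM in every line, 31.3% had both FS lines higher and 25.7% both lower. The median log2 fold change (FS minus EpiSC) was 0.44 over the 40 genes and -0.01 over all genes tested. Together the 40 genes made up 9415 and 9347 CPM in the FS lines, and 6164 and 7501 CPM in AFX6 and AF32.

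With lines as replicates, the edgeR quasi-likelihood test called no gene at an adjusted p under 0.05, neither among the 40 nor among all genes (0%), while 3636 of all genes had an unadjusted p under 0.05. At that unadjusted level 15 of the 40 were higher in FS cells, against 9.06% of all genes, and 1 (Ubr7) was lower, against 7.02%. limma on mean CPM per cell called 0 genes. The DESeq2 Wald test on the same sums called 9 of the 40 higher, namely Ccne1, Ccne2, Mcm2, Fen1, Clspn, Exo1, Tyms, Slbp and Nasp (5.6% of 21729 genes) and Ubr7 as the 1 lower (5.9%). With a line left out, 2 lines would stand against 1, and the rule of lines that do not overlap is easier to pass in either direction. Counts at that setting are therefore not compared with those of all lines, and are listed only with the processing alternatives at the end. Without cells whose G2/M score (explained later) was under 4, 21 of the 40 lay higher and 5 lower. The shares of all genes without those cells are not given, so these counts have no background beside them.

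**Figure D1:**
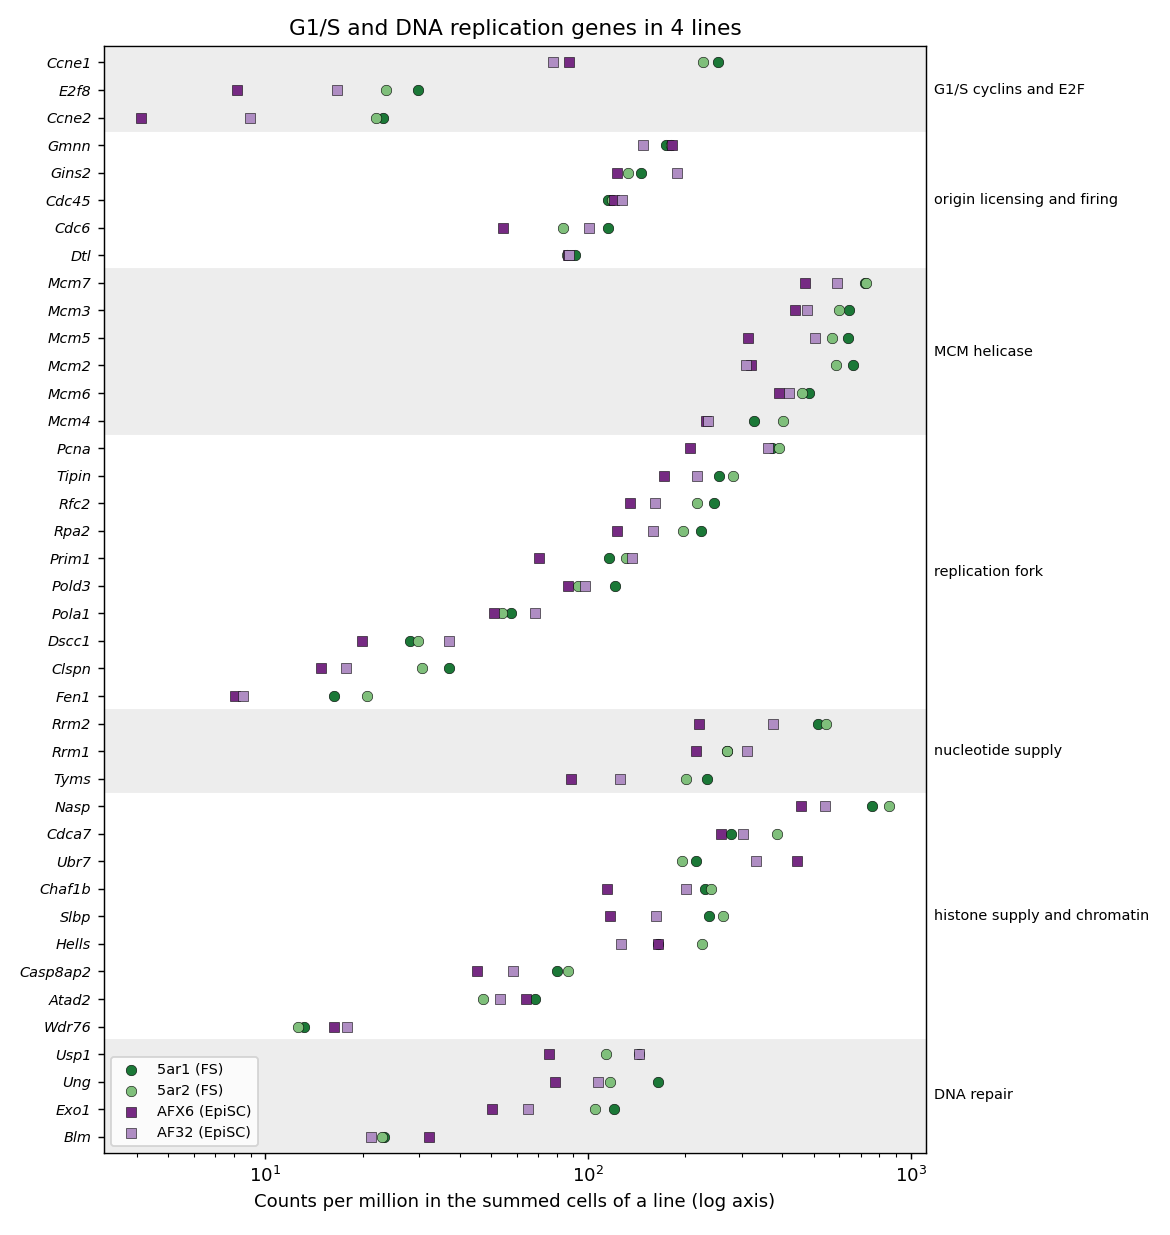
CPM (x axis, log scale) of each of the 40 genes (y axis, grouped by role) in the summed kept cells of FS lines 5ar1 and 5ar2 (circles) and EpiSC lines AFX6 and AF32 (squares). In 24 genes both circles lie to the right of both squares, as for Ccne1, and in 3 both lie to the left, as for Ubr7.

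The cyclin E genes showed the widest gaps of the 40 genes by fold change. Ccne1, which encodes cyclin E1, was at 253.04, 226.8, 87.1 and 78.1 CPM. The FS mean was 239.9 ± 18.5 CPM and the EpiSC mean 82.6 ± 6.325 (SD, n = 2 lines each), a ratio of 2.905 (log2 fold change 1.5301 ± 0.18 SE; edgeR adjusted p = 0.190). Both FS lines lay far above both EpiSC lines, and the log2 fold change stayed between 1.429 and 1.641 under the settings tried. Ccne2, which encodes cyclin E2, was at 23.2, 21.9, 4.12 and 8.99 CPM (log2 fold change 1.784 ± 0.46 SE; edgeR adjusted p = 0.200). It had the highest ratio of the 40 genes, 3.44, although AF32 had 2.179 times the CPM of AFX6. E2f8, an atypical E2F that represses E2F targets, was at 29.8, 23.7, 8.14 and 16.6 CPM (log2 fold change 1.112 ± 0.43 SE; edgeR adjusted p = 0.329).

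In single cells, fewer EpiSCs than FS cells carried the cyclin E genes, and their medians were lower. At least 10 CPM of Ccne1 was found in 87 of 90 cells of 5ar1 (96.7%) and 88 of 90 of 5ar2 (97.8%). The same held for 48 of 66 cells (72.7%) of AFX6 and for 53 of 80 (66.2%) of AF32. The level of 10 CPM is used because a few reads of these genes were present in a large share of cells. Ccne1 spanned 0 to 633.0 CPM across the cells of 5ar1 (median 249.3) and 0.560 to 838.6 across those of 5ar2 (median 206.8). The span was 0 to 436.0 CPM for AFX6 (median 63.8) and 0 to 308.4 for AF32 (median 63.97). The ranges overlapped, and both EpiSC medians lay below both FS medians. Ccne2 reached 10 CPM in 53.3% and 55.6% of FS cells but in 10.6% of AFX6 cells and 20% of AF32 cells, and the median EpiSC of either line had no count of it.

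Among the licensing and firing factors the lines overlapped in 4 of 5 genes. Gmnn, which encodes the licensing inhibitor geminin, was at 174.9, 181.04, 181.4 and 147.9 CPM (log2 fold change 0.10 ± 0.19 SE). Gins2, a subunit of the GINS complex that activates the helicase, was at 145.8, 132.8, 122.5 and 188.8 CPM, with the FS lines between the EpiSC lines. Cdc45, the other partner of the active helicase, was at 115.04, 118.4, 120.5 and 127.7 CPM, its FS lines just below its EpiSC lines (log2 fold change -0.09 ± 0.16 SE). Dtl, a substrate adaptor for ubiquitination on replicating DNA, lay within 86.1 and 90.9 CPM. Cdc6, the loader of the helicase, was at 115.4, 83.7, 54.3 and 100.3 CPM and lowest in AFX6. The spread of Cdc6 between the EpiSC lines (SD 32.506 CPM) exceeded the difference between its FS and EpiSC means of 99.5 and 77.3 CPM. At least 10 CPM of Cdc6 was found in 81.1% and 80% of FS cells, 46.97% of AFX6 cells and 58.8% of AF32 cells.

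All 6 MCM subunits, which form the core of the replicative helicase, were higher in both FS lines. Mcm2 was at 661.1, 586.3, 320.9 and 308.2 CPM (log2 fold change 0.98 ± 0.16 SE; edgeR adjusted p = 0.190). Mcm4 was at 325.9, 401.3, 231.2 and 236.1 CPM (log2 fold change 0.63 ± 0.18 SE; edgeR adjusted p = 0.227). The EpiSC lines were nearly equal for both genes. Mcm7 was at 722.1, 727.0, 471.3 and 590.3 CPM. Mcm3 was at 643.0, 600.5, 438.4 and 478.4 CPM (log2 fold change 0.43 ± 0.15 SE; edgeR adjusted p = 0.281), with a smaller gap than Mcm2. Mcm5, at 640.1, 568.1, 312.4 and 504.8 CPM, was lowest in AFX6, and Mcm6 differed least, with an FS to EpiSC ratio of 1.165. The ring holds its subunits in equal number, and the log2 fold changes of their transcripts ranged from 0.21 (Mcm6) to 0.98 (Mcm2). Per kilobase of exon, Mcm3 (143.9 RPKM as a mean over lines) and Mcm7 (141.8 RPKM) were highest of the 6 and Mcm2 (67.4 RPKM) lowest. The length taken covers all annotated exons of a gene, so ranks by RPKM depend on the annotation. It was 6956 bases for Mcm2 and from 3589 (Mcm4) to 4666 (Mcm6) for the other subunits. In mean CPM over lines Mcm2 (469.1) lay above Mcm6 (438.2) and Mcm4 (298.6). Among the 40 genes Rrm2 had the highest level per length, 149.4 RPKM, and Wdr76 the lowest, 2.375 RPKM.

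At the replication fork, 6 of 10 genes were higher in both FS lines and none was lower. Fen1, the nuclease that trims Okazaki fragments, was at 16.3, 20.6, 8.05 and 8.50 CPM (log2 fold change 1.154 ± 0.30 SE; edgeR adjusted p = 0.201). Clspn, which encodes the checkpoint mediator claspin, was at 37.2, 30.6, 14.9 and 17.8 CPM (log2 fold change 1.05 ± 0.25 SE; edgeR adjusted p = 0.190). Both were low in all lines, with FS to EpiSC ratios of 2.233 and 2.08. Tipin, a fork protection factor, was at 255.3, 280.7, 172.2 and 217.1 CPM. Rfc2, of the clamp loader, and Rpa2, of the single-strand binding complex, had ratios of 1.564 and 1.496. Pcna, the sliding clamp, was at 372.001, 389.5, 206.8 and 361.1 CPM, so AF32 lay close to the FS lines and AFX6 far below. A processed pseudogene, Pcna-ps2, was counted at 87.03, 82.7, 44.9 and 83.9 CPM, so that reads of Pcna may be split between the copies and its level is uncertain. The polymerase and primase genes Pola1, Pold3 and Prim1 and Dscc1, of an alternative clamp loader, overlapped between states. Pola1, the catalytic subunit of polymerase alpha, was at 57.9, 53.99, 50.9 and 68.4 CPM.

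Of the nucleotide supply genes, 2 of 3 were higher in both FS lines. Tyms, thymidylate synthase, was at 233.9, 201.7, 88.6 and 125.3 CPM (log2 fold change 1.02 ± 0.23 SE; edgeR adjusted p = 0.190). Rrm2, the S-phase subunit of ribonucleotide reductase, was at 516.4, 545.3, 220.7 and 373.4 CPM (log2 fold change 0.84 ± 0.29 SE; edgeR adjusted p = 0.280). Its partner subunit Rrm1 was at 270.01, 268.7, 216.5 and 310.1 CPM, with nearly equal FS lines between the EpiSC lines. The subunits of this enzyme thus had log2 fold changes of 0.84 and 0.03.

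Among 9 genes of histone supply and chromatin, 5 were higher in both FS lines and 2 lower. Nasp, a histone chaperone, was at 756.4, 854.6, 458.3 and 542.2 CPM (log2 fold change 0.68 ± 0.17 SE; edgeR adjusted p = 0.194). Slbp, which binds the stem-loop of histone mRNA, was at 236.8, 261.7, 117.1 and 162.4 CPM (log2 fold change 0.83 ± 0.22 SE; edgeR adjusted p = 0.201). Chaf1b, of chromatin assembly factor 1, Casp8ap2, needed for histone transcription, and the remodeller Hells were the other 3 that were higher. Chaf1b and Casp8ap2 had ratios of 1.491 and 1.605. Hells was at 165.08, 225.99, 164.86 and 126.3 CPM, so that 5ar1 and AFX6 were all but equal and it counts as higher by that margin only. Cdca7, a partner of Hells, was at 277.5, 386.1, 258.2 and 302.3 CPM, with 5ar1 between the EpiSC lines. Atad2, a bromodomain ATPase, was at 68.5, 47.3, 64.3 and 53.5 CPM and overlapped too.

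Ubr7 (chr12:102757967-102777707, GRCm38), a UBR-family protein known as a ubiquitin ligase for histone H2B, was at 216.05, 194.8, 444.8 and 332.3 CPM. Its FS mean was 205.4 ± 15.02 CPM and its EpiSC mean 388.5 ± 79.5 (SD, n = 2 lines each; log2 fold change -0.93 ± 0.22 SE; edgeR adjusted p = 0.190). Both FS lines lay below both EpiSC lines, and across the settings tried the log2 fold change was between -1.148 and -0.68. In single cells its medians were 192.5, 188.2, 441.6 and 316.9 CPM, and at least 96.2% of cells in every line had 10 CPM or more. The direction was opposite to that of most of the set, yet within each line cells with more Ubr7 had a higher score of the other 39 genes (Spearman's rho 0.18, 0.39, 0.52 and 0.51). Wdr76, a WD-repeat protein found at DNA damage sites, was at 13.2, 12.6, 16.3 and 17.9 CPM (log2 fold change -0.41 ± 0.26 SE).

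Of the DNA repair genes, Exo1 and Ung were higher in both FS lines. Exo1, a mismatch repair exonuclease, was at 120.6, 105.4, 50.4 and 65.2 CPM (log2 fold change 0.96 ± 0.21 SE; edgeR adjusted p = 0.190). Ung, the uracil DNA glycosylase, was at 164.9, 117.3, 79.01 and 107.5 CPM, so that 5ar2 lay only slightly above AF32. Usp1, a deubiquitinase of PCNA and FANCD2, was at 144.01, 113.6, 75.9 and 143.8 CPM. The helicase Blm was at 23.3, 23.1, 32.142 and 21.2 CPM, highest in AFX6. Usp1 and Blm overlapped between states.

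The G1/S score of a cell was the mean of log2(CPM + 1) over the 40 genes. Its median was 6.961 and 6.797 in FS lines 5ar1 and 5ar2, and 5.72 and 6.244 in EpiSC lines AFX6 and AF32. Averaged over lines, the medians gave 6.879 ± 0.12 for FS cells and 5.98 ± 0.37 for EpiSCs (SD, n = 2 lines each). The difference of 0.90 exceeded the spread between lines, and the lower FS median lay 0.55 above the higher EpiSC median. With every cell thinned to 3000000 counts the difference was 0.88. Detected genes per cell were also more numerous in FS lines, and their part in the score was not tested. The score varied more in EpiSCs, with an SD of 0.99 and 0.65 across FS cells of 5ar1 and 5ar2 and of 1.158 and 1.346 across AFX6 and AF32 cells. The interquartile range was 0.84 and 0.67 in FS lines against 1.482 and 1.508 in EpiSC lines.

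Above the median score of all kept cells (6.504) lay 63 of 90 cells of 5ar1 (70%, exact 95% interval 59.4% to 79.2%). For 5ar2 it was 65 of 90 cells (72.2%, interval 61.8% to 81.1%). Only 9 of 66 AFX6 cells (13.6%, interval 6.4298% to 24.3%) and 26 of 80 AF32 cells (interval 22.4% to 43.9%) lay above it. These Clopper-Pearson intervals cover counting error only. The shares of both FS lines lay above those of both EpiSC lines. Of the 326 cells, 32 had a score within 0.1 of the cut. The median number of the 40 genes at 10 CPM or more in a cell was 37 in both FS lines, 32 in AFX6 and 33.5 in AF32.

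**Figure D2:**
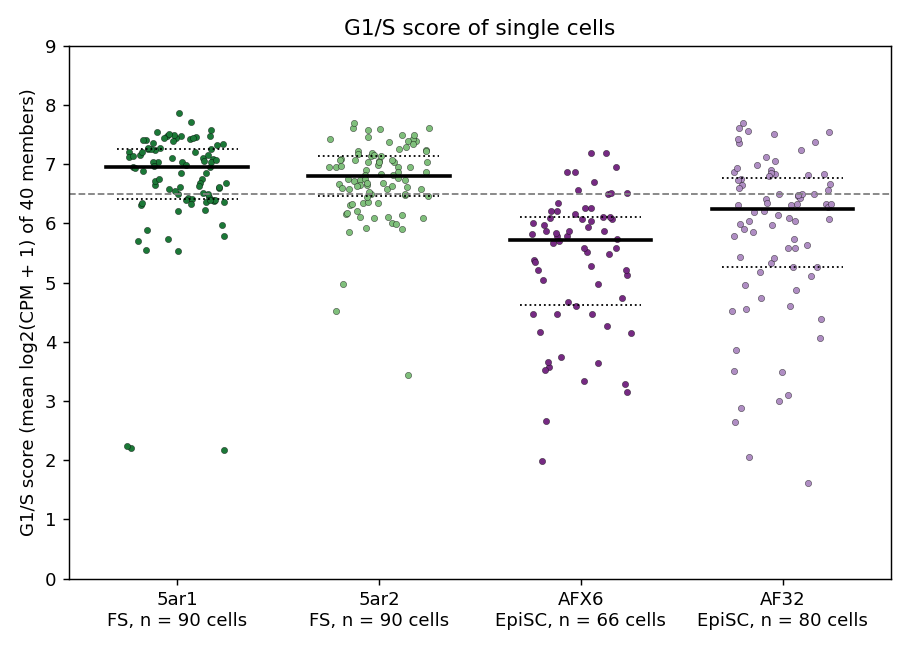
G1/S score of each kept cell (y axis, mean log2(CPM + 1) of the 40 genes) by line (x axis). Solid bars are medians, dotted bars quartiles and the dashed line the median of all 326 cells. Most cells of 5ar1 and 5ar2 lie above the dashed line and most of AFX6 and AF32 below it.

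A tail of low scores was present in every line. Scores under 4 were found in 3 of 90 cells of 5ar1 and 1 of 90 cells of 5ar2, which are 3.33% (exact 95% interval 0.693% to 9.43%) and 1.111% (0.0281% to 6.04%). Among EpiSCs they were 10 of 66 AFX6 cells (15.2%, 7.51% to 26.1%) and 9 of 80 AF32 cells (11.2%, 5.28% to 20.3%). A G2/M score was formed the same way from 44 genes of G2 and mitosis, such as Ccnb1 and Top2a, none of them among the 40. Of the 23 cells with a low G1/S score, 17 also had a G2/M score under 4 (3, 1, 5 and 8 cells). G2/M scores under 4 at any G1/S score were found in 3, 4, 13 and 21 cells.

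The cells low in both scores were not shallow in the EpiSC lines, with median depths of 4903960 counts in AFX6 and 5060600 in AF32. Their detected genes numbered 9595 in AFX6 against 10480 in its other cells, and 9855.5 against 10386.5 in AF32. In the 3 such cells of 5ar1 median Pou5f1 was 3.68 against 632.4 CPM in its other 87 cells. Dnmt3b, a de novo DNA methyltransferase of the epiblast, was at 8.98 against 2313 CPM there. The single such cell of 5ar2 had 2.05 CPM of Pou5f1. In AFX6 the 5 cells low in both scores had a median Pou5f1 of 490.1 against 511.7 CPM, and in AF32 the 8 cells had 326.5 against 526.9 CPM. Other genes of the epiblast were lower in these EpiSCs too, as Dnmt3b was at 104.8 against 385.3 CPM in AFX6 and at 173.1 against 595.1 CPM in AF32. In AFX6 the transcription factor genes Otx2 (4.11 against 95.1 CPM) and Nanog (24.3 against 125.5 CPM) were also lower, whereas Utf1, a chromatin factor of pluripotent cells, was at 1086 against 1040 CPM. In AF32 Utf1 was at 28.6 against 241.03 CPM, and Otx2 (70.5 against 85.5 CPM) and Nanog (327.8 against 384.1 CPM) were closer to the other cells. Median Sox2 was 0.789 against 11.2 CPM in 5ar1 and 0 against 11.8 CPM in 5ar2. It was near 0 in either group of EpiSCs, at 0 against 0 CPM in AFX6 and 0.515 against 0.957 CPM in AF32. Cdkn1a, which encodes the CDK inhibitor p21, was at 1203 against 19.6 CPM in 5ar1. In 5ar2 the single such cell had 757.2 CPM of Cdkn1a, against a median of 75.6 CPM. In AFX6 it was at 361.1 against 87.9 CPM and in AF32 at 28.9 against 1.0999 CPM. A score cut defines a range of cells and not a cell type.

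Within lines, the 40 genes varied together. The median Spearman's rho of a gene with the score of the other 39 was 0.48, 0.44, 0.44 and 0.51. For 5708 other genes with at least 20 CPM in every line, the median rho with the score was 0.03, 0.01, 0.13 and 0.07. These are descriptions across 66 to 90 cells of a line, which share a culture and in part depth. Over the 780 pairs of the 40 genes the median rho was 0.24, 0.22, 0.22 and 0.30. The clamp gene Pcna followed the others most closely (0.68, 0.79, 0.56 and 0.76), then Rrm2 (0.76, 0.60, 0.56 and 0.76) and Cdc6 (0.61, 0.48, 0.68 and 0.76). Blm followed least (0.16, -0.0045, 0.08 and 0.33), then Pola1 (0.19, 0.31, 0.17 and 0.34).

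Some pairs were less close in the EpiSC lines and others were not. Ccne1 and Ccne2 had a rho of 0.34, 0.39, 0.02 and 0.18. Ccne2 had a count in only 37.9% of AFX6 cells and 41.25% of AF32 cells, so that most EpiSCs tie at 0 for it. Ung with Slbp had 0.62, 0.54, 0.26 and 0.28. Pcna with Rrm2 was close throughout, at 0.54, 0.60, 0.41 and 0.62, as was Mcm2 with Mcm5, at 0.47, 0.51, 0.41 and 0.44. Ccne1 with Rrm2 had 0.55, 0.39, -0.03 and 0.38, lower in AFX6 alone. The difference between states was not tested for any pair.

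**Figure D3:**
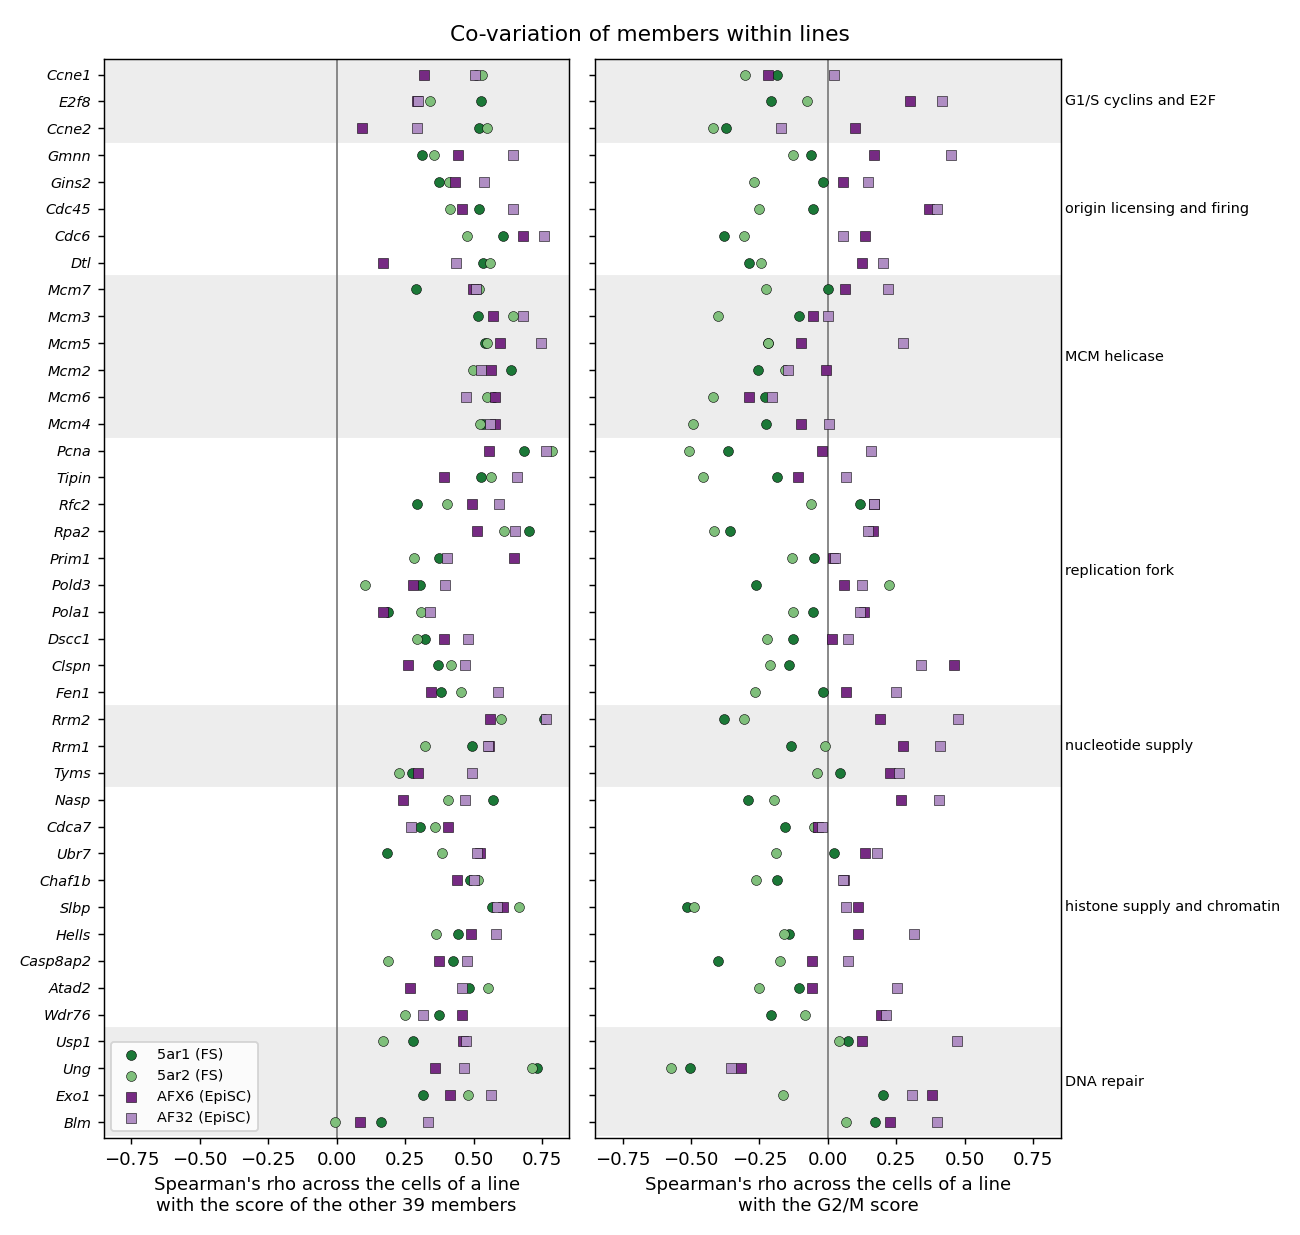
Spearman's rho across the cells of a line (x axes) of each of the 40 genes (y axis) with the score of the other 39 (left panel) and with the G2/M score (right panel), with circles for FS lines and squares for EpiSC lines. On the left all points but Blm in 5ar2 lie above 0, and on the right Ung lies below 0 in all 4 lines.

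Against the G2/M score the states separated. The rho between the G1/S and G2/M scores was -0.40 in 5ar1 and -0.50 in 5ar2, but 0.24 in AFX6 and 0.26 in AF32. Of the 40 genes, 33 and 37 had a negative rho with the G2/M score in the FS lines, and 12 and 5 in AFX6 and AF32. Ung was negative in all 4 lines (-0.51, -0.57, -0.32 and -0.36), as was Mcm6 (-0.23, -0.42, -0.29 and -0.20). Slbp was negative in the FS lines alone (-0.52, -0.49, 0.11 and 0.07). Clspn (-0.14, -0.21, 0.46 and 0.34) and Cdc45 (-0.05, -0.25, 0.37 and 0.40) had the highest mean rho over the EpiSC lines.

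The sign in the EpiSC lines depended on the cells with a low G2/M score. Without cells whose G2/M score was under 4, the rho of the scores was -0.55, -0.65, -0.10 and -0.49, negative in every line. Given the number of detected genes, the partial rho over all kept cells was -0.46, -0.49, -0.10 and 0.06. The G1/S score itself had a rho with detected genes of -0.02 and -0.16 in the FS lines and of 0.61 and 0.44 in the EpiSC lines. Its rho with total counts was 0.02, -0.01, 0.30 and -0.21.

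**Figure D4:**
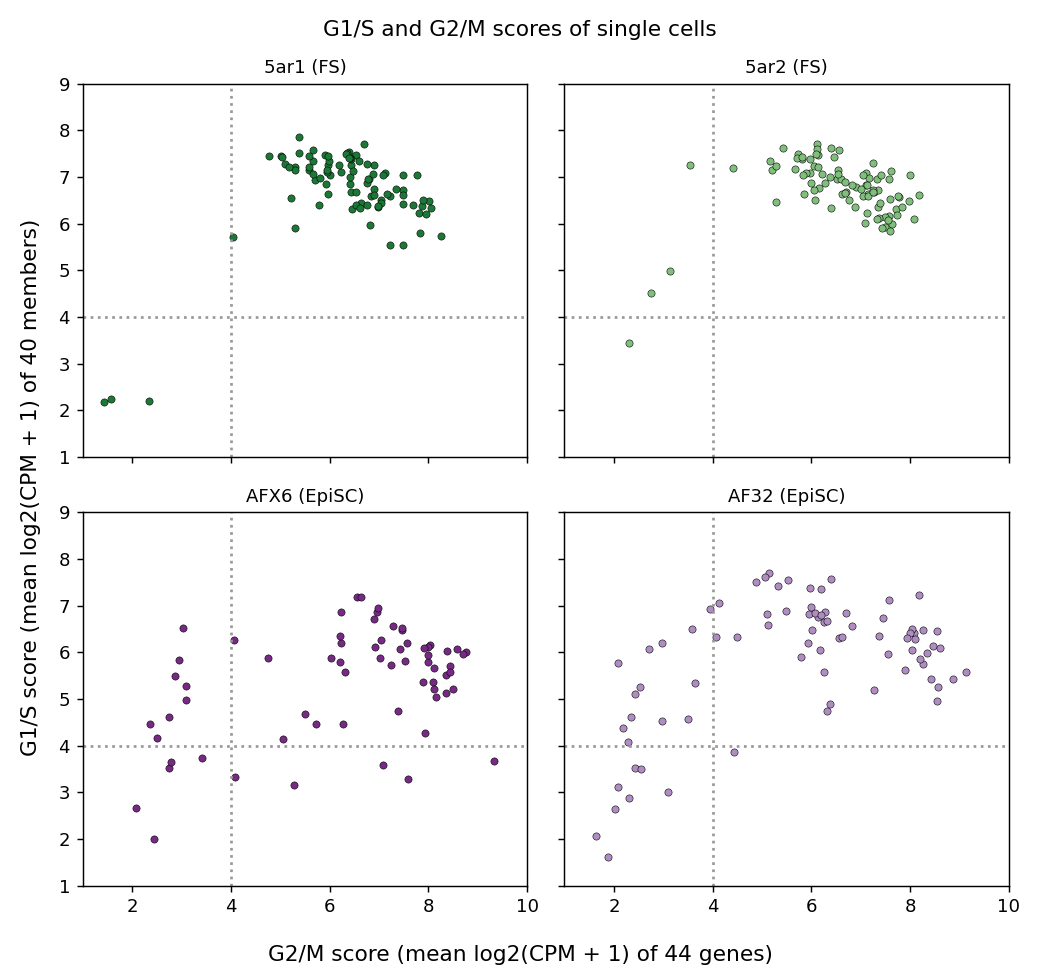
G1/S score (y axis) against G2/M score (x axis, mean log2(CPM + 1) of 44 genes) for each kept cell, with 1 panel per line and dotted lines at a score of 4. In AFX6 and AF32, 13 and 21 cells lie left of the vertical line, against 3 and 4 in 5ar1 and 5ar2.

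Genes outside the 40 whose levels followed the score most closely were ranked by their mean rho over the 4 lines. Pcna-ps2 was highest (0.74), and it shares sequence with a gene of the score. Then came Mcm10 (0.59), which stabilises the active helicase, and Fam111a (0.55), a protease that acts at replication forks. Uhrf1 (0.50), which recruits the maintenance DNA methyltransferase, Rfc3 (0.50), of the clamp loader, and Dut (0.48), which removes dUTP, followed. Hat1 (0.48), a histone acetyltransferase, Hist1h1b (0.47), a linker histone, and Ppil1 (0.47), a spliceosomal isomerase, were next.

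The rest of the pathway was examined from lists of further genes, for which FS and EpiSC mean CPM are given. Their counts stand beside the 26.8% of all genes and 31.3% of genes with at least 20 CPM in every line that were higher in both FS lines. The shares that were lower in both FS lines were 21.5% and 25.7%. Of 10 licensing genes 5 had both FS lines above both EpiSC lines and 1 below, the higher ones including Mcm10 (164.8 against 88.5 CPM) and the origin recognition genes Orc2 (128.9 against 69.7) and Orc5 (150.3 against 82.3). Of 26 replisome genes 17 were higher and 4 lower. Here Wdhd1, which couples polymerase alpha to the helicase, was at 64.4 against 30.5 CPM and the helicase gene Recql4 at 19.9 against 6.7205, whereas the polymerase delta subunit Pold4 was at 5.52 against 16.4. Of 11 further nucleotide supply genes 5 were higher and 1 lower. Umps, of pyrimidine synthesis, was at 291.3 against 120.3 CPM and Gart, of purine synthesis, at 445.0 against 258.1, and Cad, of pyrimidine synthesis, overlapped (145.5 against 109.3). Of 12 checkpoint and S-phase repair genes 3 were higher and none lower, a share of higher genes below that of all genes. Uhrf1 was at 274.3 against 190.3 CPM, and Brca1 overlapped (28.2 against 40.95).

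Upstream regulators showed no common direction, and their share of higher genes was close to that of all genes. Of 22 genes of G1/S control 6 were higher in FS lines and 4 lower, with a median log2 fold change of -0.01. E2f4 (267.4 against 129.1 CPM) and E2f6 (71.3 against 29.7), E2F factors that mostly repress, were higher, and Cdk6, a partner of D cyclins, was lower (88.7 against 184.5). Of 6 CDK inhibitor genes tested, none was higher and 2 were lower: Cdkn1b, which encodes p27 (5.95 against 23.6 CPM), and Cdkn2d, which encodes p19 (22.6 against 45.8). Cdkn2b overlapped, at 3.98 against 3.11 CPM. Of the 44 genes of G2 and mitosis 3 were higher and 23 lower in FS lines, against 21.5% of all genes lower. Their median log2 fold change was -0.34. The furthest were Anln, a cytokinesis scaffold (71.1 against 219.9 CPM), Gas2l3, a cytoskeletal linker (29.1 against 74.7), and the centromere chaperone Hjurp (109.4 against 261.2). No gene of these lists was called by edgeR after adjustment, and at an unadjusted p under 0.05 there were 3 licensing, 6 replisome, 1 nucleotide supply, 1 checkpoint, 4 control, 2 inhibitor and 10 mitotic genes. For comparison, that level was reached by 16.1% of all genes and by 22.3% of those with at least 20 CPM in every line.

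Between the EpiSC lines, most of the 40 genes were higher in AF32, grown without XAV939, than in AFX6. AF32 was above AFX6 in 33 of the 40 and below in 7, and the share of all genes above AFX6 is not given. The median ratio of the 40 was 1.257. It was 0.997, close to 1, over all genes tested. Over genes with at least 20 CPM in every line it was 1.051, so that most genes at that level were higher in AF32 too. At a fold of 1.5, 11 genes were higher in AF32, against 29.5% of all genes, and 1 (Blm, ratio 0.661) was lower, against 25.1%. The highest ratios were of Ccne2 (2.179, 2.04 to 2.323 as exact 95% interval), E2f8 (2.04, 1.952 to 2.139), Prim1 (1.943, 1.913 to 1.97) and Usp1 (1.894, 1.866 to 1.923). Ccne1 (0.897), Mcm2 (0.960) and Ubr7 (0.747) were lower in AF32. The intervals cover counting error only, 1 line stands for each medium, and no test was made. The share of 11 in 40 lies near that of all genes, most of which are low. Of the 5742 genes with at least 20 CPM in every line, 15.2% were higher in AF32 and 9.004% lower at this fold, and of the 34 members at that level 8 were higher and 1 lower.

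The FS lines, which shared a medium, differed less. No gene of the 40 passed a fold of 1.5 between 5ar2 and 5ar1, against 20.4% of all genes higher and 20.3% lower. Among the 5742 genes with at least 20 CPM in every line the shares were 3.05% and 5.12%, so that few genes at the level of most members passed this fold. The ratios ran from 0.690 (Atad2) to 1.392 (Cdca7), with a median of 0.951. That median was 0.987 over all genes tested and 0.971 over those with at least 20 CPM in every line.

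Some of these ratios moved with the chromosome. Protein-coding genes of chromosomes 8 and 11 had median AF32 to AFX6 ratios of 1.361 and 1.3604 (415 and 622 genes averaging 20 CPM or more), against 1.06 over all 6903. Mcm5 (1.616) and Gins2 (1.541), on chromosome 8, and Cdc6 (1.846), on chromosome 11, were among the 11 genes. Relative to the median of its chromosome Mcm5 was at 1.187, Gins2 at 1.132 and Cdc6 at 1.357. Between the FS lines, genes of chromosome 19 had a median 5ar2 to 5ar1 ratio of 1.2405 (252 genes), and Hells (1.369) and Fen1 (1.2603) lie there. Relative to chromosome medians, 8 genes passed a fold of 1.5 in AF32 over AFX6 and none was lower, and 1 (Atad2) was lower in 5ar2. The shares of all genes scaled in this way are not given, so these counts have no background beside them. The part of the chromosome in these ratios was not tested.

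**Figure D5:**
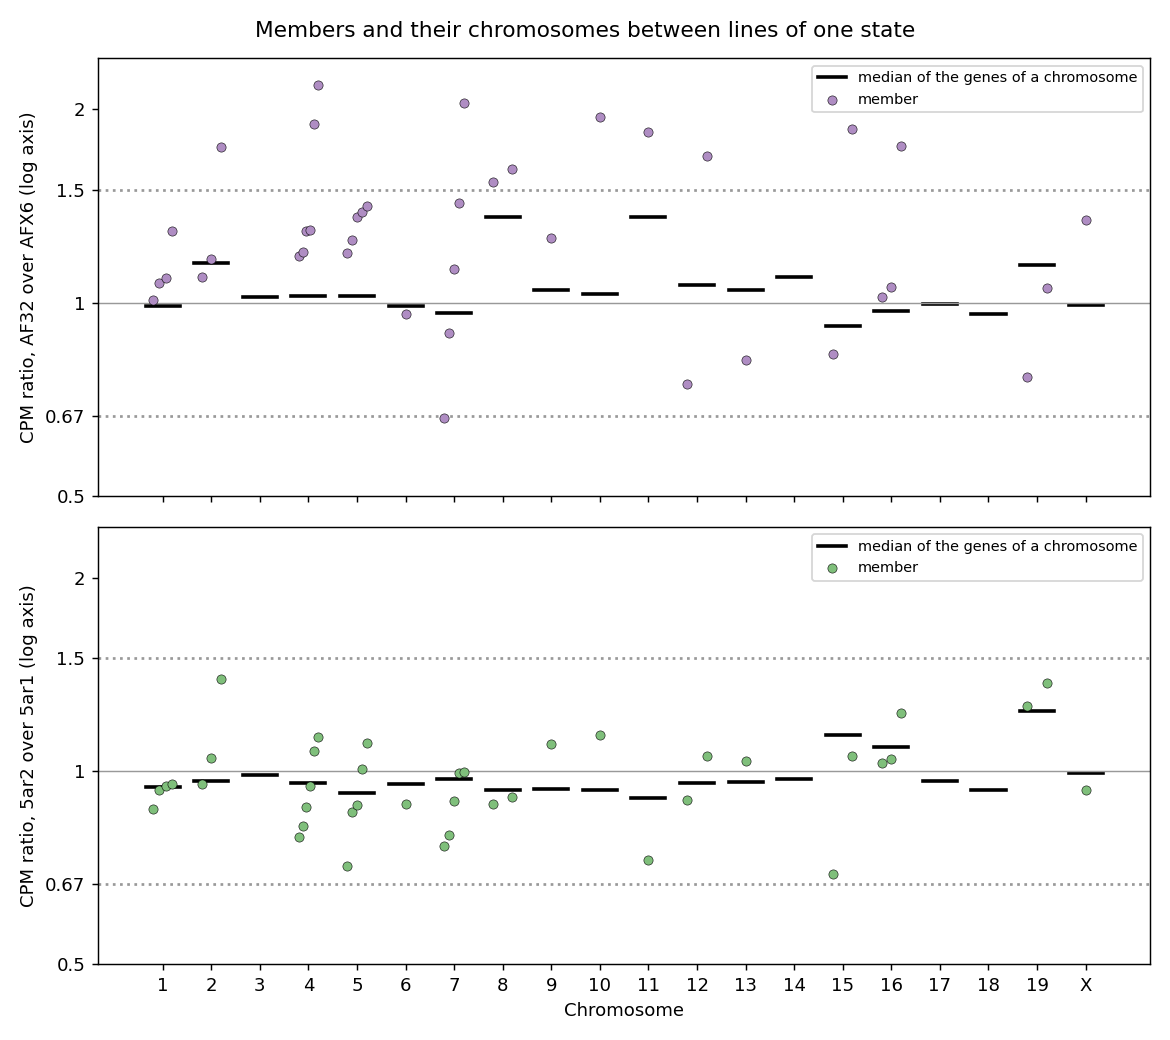
Ratio of CPM (y axes, log scale) of AF32 over AFX6 (top) and 5ar2 over 5ar1 (bottom) for the 40 genes (points) by chromosome (x axis), with the median of protein-coding genes of that chromosome (bars) and a fold of 1.5 either way (dotted lines). In the top panel the bars of chromosomes 8 and 11 stand highest and 11 points lie above the upper dotted line, and in the bottom panel none does.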

How the data were processed

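Smart-seq2 reads of 384 cells were, per the labels and the study's methods, aligned by the authors to GRCm38.p6 with STAR 2.7.3a and assigned to Ensembl genes with featureCounts 2.0.0. The deposited raw table holds read counts, from unique alignments, for each gene in each cell. Precision rests on depth (3022666 to 6686007 counts in kept cells). The authors also deposited sctransform output, a depth-adjusted score rounded to whole numbers, used here as an alternative. Whether strand was used in counting is not given in the sources used here. Lines were taken from sample titles. Counts of cells with at least 3000000 counts were summed per line and tested by edgeR 4.0.16 in R 4.3.3 (quasi-likelihood, two-sided, TMM factors, low genes removed by filterByExpr, Benjamini-Hochberg adjustment), so p-values measure the spread between lines. DESeq2 1.42.0 and limma 3.58.1 served as alternatives. The edgeR step was also run on simulated data, and the outcome of that run is not reported here. Scores, Spearman's rho and intervals (Clopper-Pearson for shares, exact conditional for ratios) used Python 3.11.15 and scipy 1.17.1. Positions, exon lengths and biotypes came from GENCODE M21. Values per line were given, in each role, for the 2 genes of highest mean CPM, the 2 of largest fold change and the extremes of rho, and more briefly for others. From each pathway list at most 3 genes were named, by fold change among those with at least 5 CPM in a line, and further genes by rho with the score, of which some that these rules select are not reported here. The members and lists were chosen with earlier results of these data known. The marker Cdx2 was not analysed here.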

Additional observations from a re-analysis of the deposited data

Results flagged for a closer look

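The rho between the G1/S and G2/M scores was negative in both FS lines (-0.404 in 5ar1 and -0.5 in 5ar2) and positive in both EpiSC lines (0.242 in AFX6 and 0.259 in AF32), so that the lines of each state went opposite ways. The difference was not tested, and the rho was negative in all 4 lines without cells under 4 in the G2/M score. The 58 cells with fewer than 3000000 counts (6, 6, 30 and 16 of 5ar1, 5ar2, AFX6 and AF32), which enter no comparison, had G1/S scores from 1.791 to 7.53, with a median of 4.04, and 28 of them were under 4.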

How the results depend on the processing

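The count of genes called by edgeR or limma was 0 under each alternative run, leave-one-out fits included, with 1208 to 5192 at an unadjusted p under 0.05, while the DESeq2 Wald test called 2500. Members with both FS lines higher numbered 21 to 24 where all lines were kept. Those with both FS lines lower numbered 5 with all 384 cells and 5 without cells under 4 in the G2/M score. With a line left out, 25 to 33 members were higher and 3 to 8 lower. At that setting 2 lines stand against 1, so the rule is easier to pass in either direction. The shares of all genes at that setting are not given, so its counts cannot be compared with those of all lines. The score difference was 0.61 with a pseudocount of 10 and 0.45 on a Z-score scale. The difference in the share of high cells, 48.04 percentage points, was 29.9 with the cut at the 75th percentile. At a fold of 2, members higher in AF32 numbered 2 and lower 0, and the shares of all genes at that fold are not given. The 1 lower member became 0 without cells with few detected genes and 0 relative to the chromosome median, where 1 was lower in 5ar2. The mean co-variation of 0.47 was 0.41 without cells under 4 in the G2/M score, where the rho with that score became -0.10 in AFX6 and -0.49 in AF32, and it was -0.10 in AFX6 given detected genes. Of 520 log2 fold changes of members under alternatives, 27 changed sign, in 13 members. With lines left out in turn they ran from -0.34 to 0.20 for Atad2, -0.51 to 0.14 for Blm, -0.026 to 0.44 for Cdca7, -0.35 to 0.50 for Dscc1, -0.042 to 0.049 for Dtl, -0.42 to 0.15 for Gins2, -0.061 to 0.28 for Gmnn, -0.28 to 0.10 for Pola1, -0.014 to 0.39 for Pold3, -0.13 to 0.78 for Prim1, -0.19 to 0.28 for Rrm1 and -0.14 to 0.73 for Usp1. Dtl was at -0.0049 with DESeq2 and -0.0049 with its size factors, -0.017 with limma, -0.13 with all cells and -0.017 with cells thinned to 1000000 counts. Dscc1 was at -0.0077 with DESeq2 and -0.0077 with its size factors, -0.12 with cells of at least 4000000 counts and -4.55e-05 with all cells. Cdc45 was at 0.040 with all cells, and Atad2 at 0.10 with at least 4000000 counts and 0.015 without cells with few detected genes. The cause was not tested. The alternatives on G2/M scores, chromosome medians, TMM-scaled member counts and the edgeR fit without cells with few genes were chosen after seeing the data. No paired analysis was possible because the replicate numbers are wells within 4 separate lines. With 2 lines per state, and 1 per EpiSC medium, comparisons of states rest on few lines. The parts of line spread and of depth in their precision were not tested.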
